A study of Mus musculus with 10 samples.

Results

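The 10 genes described here are glucocorticoid targets and components of glucocorticoid signalling: Fkbp5, Tsc22d3, Serpina3n, Sult1a1, Hsd11b1, Zbtb16, Sgk1, Nr3c1, Klf9 and Dusp1. They were chosen by their intensities, as genes high in differentiated and low in reprogrammed cells, so values of that contrast are given as a description without a test. All 10 had a probe among the 19057 genes of the array, with 15 probes in all, and each was read from its brightest probe. Each was detected on at least 1 array, and 6 of the 10 on all 10 arrays.

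RNA came from C57BL/6J mouse cells whose source is given as mesenchymal stem cells (MSC) of adult bone marrow, the stromal cells that can form fat, cartilage and bone. Undifferentiated MSC stood on 2 arrays. Adipocytes, chondrocytes and osteocytes differentiated from them, the reprogrammed cells named for each of the 3 lineages, osteocytes derived in vivo, and treated in vivo osteocytes stood on 1 array each. The agent of the treatment, the reprogramming and culture conditions, and the age of the mice are not given in the sources used here. Only MSC had a replicate, precision is limited by the few arrays, and the SD given for a difference is taken over the 3 lineages.

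Glucocorticoids enter cells and bind the glucocorticoid receptor, which Nr3c1 encodes. The receptor then leaves its complex of heat shock proteins and co-chaperones, moves to the nucleus and acts on target genes, in part through a palindromic DNA element. Tissue exposure also depends on Hsd11b1, which regenerates active glucocorticoid from its inactive form inside cells. In cultured marrow stromal cells, glucocorticoids are known to promote formation of adipocytes and osteoblasts.

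Levels are normalised intensities on the log2 scale, with background removed and array distributions made equal, and a level of one gene cannot be set against that of another. A probe was called detected at a detection p-value under 0.01, and 14896 to 16737 probes passed per array. Where a gene was not detected on the dimmer side, its fold is a lower bound, taken against the dimmest detected probe of each such array. In these bulk samples, fewer cells of a type and less RNA per cell cannot be told apart. The labelled identities were borne out in part. All 6 adipocyte markers were detected on the differentiated adipocyte array, with Adipoq at 14.70. On the differentiated chondrocyte array Comp stood at 13.77, above every other array, but Acan was not detected. Col2a1 stood at 8.28 there, below MSC 2 at 9.48 and below the reprogrammed cells at 10.31 to 11.09, and Sox9 stood at 9.41, below MSC 1 at 10.97 and differentiated osteocytes at 10.59. The osteocyte genes Dmp1, Sost, Mepe and Fgf23 were not detected on any array, while Bglap, an osteoblast gene, stood at 6.95 in differentiated, 12.24 in in vivo and 6.87 in treated in vivo osteocytes. Phex was not detected in differentiated osteocytes, at 4.48, but was in MSC, at 5.68 and 6.67. Sp7 stood at 8.99 in differentiated osteocytes, below both MSC arrays at 9.56, and Alpl at 5.90, against 5.90 and 6.65 in MSC. Ibsp stood at 5.87 there, below differentiated chondrocytes at 8.46. Alpl and Ibsp were highest in in vivo osteocytes, at 8.89 and 8.87. All 9 macrophage markers were detected on the differentiated chondrocyte and in vivo osteocyte arrays, with summed linear intensities of 138034 and 144548. At most 2 were detected on any other array, with sums of 291 to 377, and 1029 on the treated in vivo array. The differentiated and reprogrammed osteocyte arrays were deposited on other intensity scales than the remaining 8, so scale and osteocyte lineage cannot be told apart in values that cross them.

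Promoter sequence is shown for the members whose promoter window held the core of the glucocorticoid response element, the receptor's DNA site. RefSeq promoter windows of GRCm38.p6, each the 250 bases before a start site, were found for 8 of the 10 members, and none was given for Zbtb16 or Nr3c1. The core searched was GNACANNNTGTNC, whose letters read the same on both strands. The windows of Sgk1 and Serpina3n are printed 5′ to 3′ on the plus strand, with the match in capitals (for Sgk1, the whole 15-letter element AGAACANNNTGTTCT).
Sgk1, chr10:21993640-21993889: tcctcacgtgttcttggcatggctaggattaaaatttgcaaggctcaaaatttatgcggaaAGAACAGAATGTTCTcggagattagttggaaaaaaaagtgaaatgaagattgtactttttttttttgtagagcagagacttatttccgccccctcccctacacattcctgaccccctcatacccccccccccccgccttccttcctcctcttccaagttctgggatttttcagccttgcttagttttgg
Serpina3n, chr12:104406458-104406707: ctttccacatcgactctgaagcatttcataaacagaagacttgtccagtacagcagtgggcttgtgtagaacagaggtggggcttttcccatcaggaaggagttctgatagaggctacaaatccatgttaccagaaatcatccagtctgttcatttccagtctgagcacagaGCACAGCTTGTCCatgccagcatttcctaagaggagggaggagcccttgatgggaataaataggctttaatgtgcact
The core of the Sgk1 match lay 188 to 176 bases before 1 of the 6 Sgk1 start sites in the table, and the Serpina3n match lay 78 to 66 bases before its start. The core was present in 127 of 32851 promoter windows (0.387%) and in 2 of 15 windows of the members. The whole element was present in 3 of the 32851 windows (0.00913%), of which the Sgk1 window was 1. A match is a run of letters and not a shown binding site, and members without one carry no such letters in these windows only.

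Hsd11b1 and Nr3c1 help set how much active hormone and receptor a cell has. Hsd11b1 stood at 5.94 and 8.47 in the MSC arrays. It stood at 13, 10.09 and 11.05 in differentiated adipocytes, chondrocytes and osteocytes, and at 6.25, 6.48 and 6.22 in the reprogrammed cells of those lineages. All 3 differentiated arrays lay above every other array, and the reprogrammed arrays lay between the MSC arrays. Reprogrammed cells were lower by a log2 difference of -5.06 on average (SD 1.58 over 3 lineages), or 33.4-fold, from -6.74 in the adipocyte pair to -3.62 in the chondrocyte pair. The MSC arrays themselves differed by 2.53 for this gene, which was detected on all 10 arrays.

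Nr3c1 went the other way, and so against the label under which these genes were picked. Its probe stood at 4.93 and 5.91 in MSC and at 5.04, 4.94 and 4.56 in differentiated adipocytes, chondrocytes and osteocytes. It stood at 5.61, 5.78 and 5.76 in the reprogrammed cells, at 4.91 in in vivo osteocytes and at 5.43 in treated ones. It was detected on 5 arrays: the reprogrammed 3, MSC 2 and the treated in vivo osteocytes. The reprogrammed and differentiated arrays did not overlap, the mean difference was 0.87 (SD 0.32), and the bound on the fold was at least 1.10. All reprogrammed arrays lay above all differentiated arrays for 16.1% of the probes tested. All levels were near the detection limit, which lay at 5.36 to 5.78 across arrays, and without background correction the difference was 0.25.

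Fkbp5 encodes a co-chaperone of the receptor that lowers its affinity for hormone, and is itself a direct receptor target. It stood at 7.23 and 7.76 in MSC, at 11.80, 12.02 and 12.14 in differentiated adipocytes, chondrocytes and osteocytes, and at 7.92, 8.38 and 7.35 in their reprogrammed counterparts. The differentiated levels lay within 0.34 of each other, and the reprogrammed levels lay between the MSC arrays in osteocytes and above both in the other lineages. In the deposited intensities, before any processing here, Fkbp5 read 3973 and 4600 in differentiated adipocytes and chondrocytes against 335 and 432 in the reprogrammed cells. The difference between reprogrammed and differentiated cells was -4.11 (SD 0.61), or 17.2-fold, and that between differentiated cells and MSC was 4.49, or 22.5-fold.

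Tsc22d3, Zbtb16 and Klf9 encode transcriptional regulators that glucocorticoids induce. Tsc22d3, the leucine zipper protein GILZ that carries part of the anti-inflammatory action, stood at 10.08 and 9.89 in MSC. It stood at 12.65, 12.85 and 14.01 in differentiated adipocytes, chondrocytes and osteocytes and at 9.99, 9.39 and 10.01 after reprogramming. The reprogrammed adipocyte and osteocyte levels lay between the MSC arrays, and the chondrocyte level below both. The reprogrammed cells were lower than the differentiated cells by a difference of -3.37 (SD 0.67), or 10.4-fold.

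Zbtb16, a zinc finger repressor also called PLZF, was detected only on the 3 differentiated arrays, at 7.38 in adipocytes, 6.99 in chondrocytes and 8.23 in osteocytes. On the other 7 arrays it stood between 4.52 and 5.09, with detection p-values of 0.0406 to 0.623. The reprogrammed cells were lower by -2.83 (SD 0.50), at least 4.28-fold, and MSC were lower than the differentiated cells at least 4.01-fold. Without background correction the difference shrank to -1.12.

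Klf9, a Krüppel-like factor, was detected throughout and moved less. It stood at 11.76 and 11.62 in MSC, at 12.68, 12.19 and 12.63 in differentiated adipocytes, chondrocytes and osteocytes, and at 11.18, 11.24 and 11.20 in reprogrammed cells. The reprogrammed levels lay within 0.07 of each other and below both MSC arrays, and the differentiated levels lay above both. The difference between reprogrammed and differentiated cells was -1.29 (SD 0.31), or 2.45-fold.

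Sgk1 and Dusp1 act on kinase signalling. Sgk1, a serine/threonine kinase that regulates ion transport, stood at 13.53 and 13.77 in MSC and at 13.92, 13.94 and 15.12 in differentiated adipocytes, chondrocytes and osteocytes. It stood at 13.81, 13.69 and 13.42 in reprogrammed cells. The lowest differentiated level exceeded the highest reprogrammed level by only 0.11, and the mean difference of -0.69 (SD 0.88) came mostly from the osteocyte pair, at -1.71, against -0.11 and -0.25. Without the osteocyte pair the mean was -0.18. The probe lay at the 98.3rd percentile of its array or higher everywhere, and its osteocyte level was close to 15.16, the highest value on any array.

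Dusp1, a phosphatase that switches off MAP kinases, stood at 12.30 and 12.23 in MSC and at 11.84, 12.30 and 13.51 in differentiated adipocytes, chondrocytes and osteocytes. It stood at 10.73, 11.55 and 11.59 in reprogrammed cells. Here the differentiated cells did not all exceed MSC, while all 3 reprogrammed levels lay below both MSC arrays, whose own levels differed by 0.06. The difference between reprogrammed and differentiated cells was -1.26 (SD 0.60), or 2.40-fold, and that between reprogrammed cells and MSC was -0.98.

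Serpina3n and Sult1a1 showed the widest ranges. Serpina3n, a secreted serine protease inhibitor, stood at 10.78, 14.23 and 12.71 in differentiated adipocytes, chondrocytes and osteocytes. It was not detected in either MSC array or in any reprogrammed cells, where values lay between 4.34 and 4.58. Reprogrammed cells were lower by -8.06 (SD 1.64), at least 141-fold. The highest level was on the chondrocyte array that also carried macrophage markers. The differentiated adipocyte and osteocyte arrays had macrophage sums of 291 and 325, against 377 and 315 in MSC 1 and MSC 2, and there Serpina3n was lower in reprogrammed cells by at least 37.3-fold and 160-fold. The part of macrophage RNA in the chondrocyte value was not tested.

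Sult1a1, a phenol sulfotransferase, stood at 7.22 in MSC 1 and was not detected in MSC 2, at 4.67. It stood at 13.59, 11.47 and 12.64 in differentiated adipocytes, chondrocytes and osteocytes and was not detected in reprogrammed cells, at 4.49, 4.59 and 5.10. Reprogrammed cells were lower by -7.84 (SD 1.14), at least 140-fold. Against MSC the mean difference of reprogrammed cells was -1.22, but it turned to 0.06 without MSC 1 and was -2.50 without MSC 2, so the MSC arrays do not settle its direction.

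**Figure D1:**
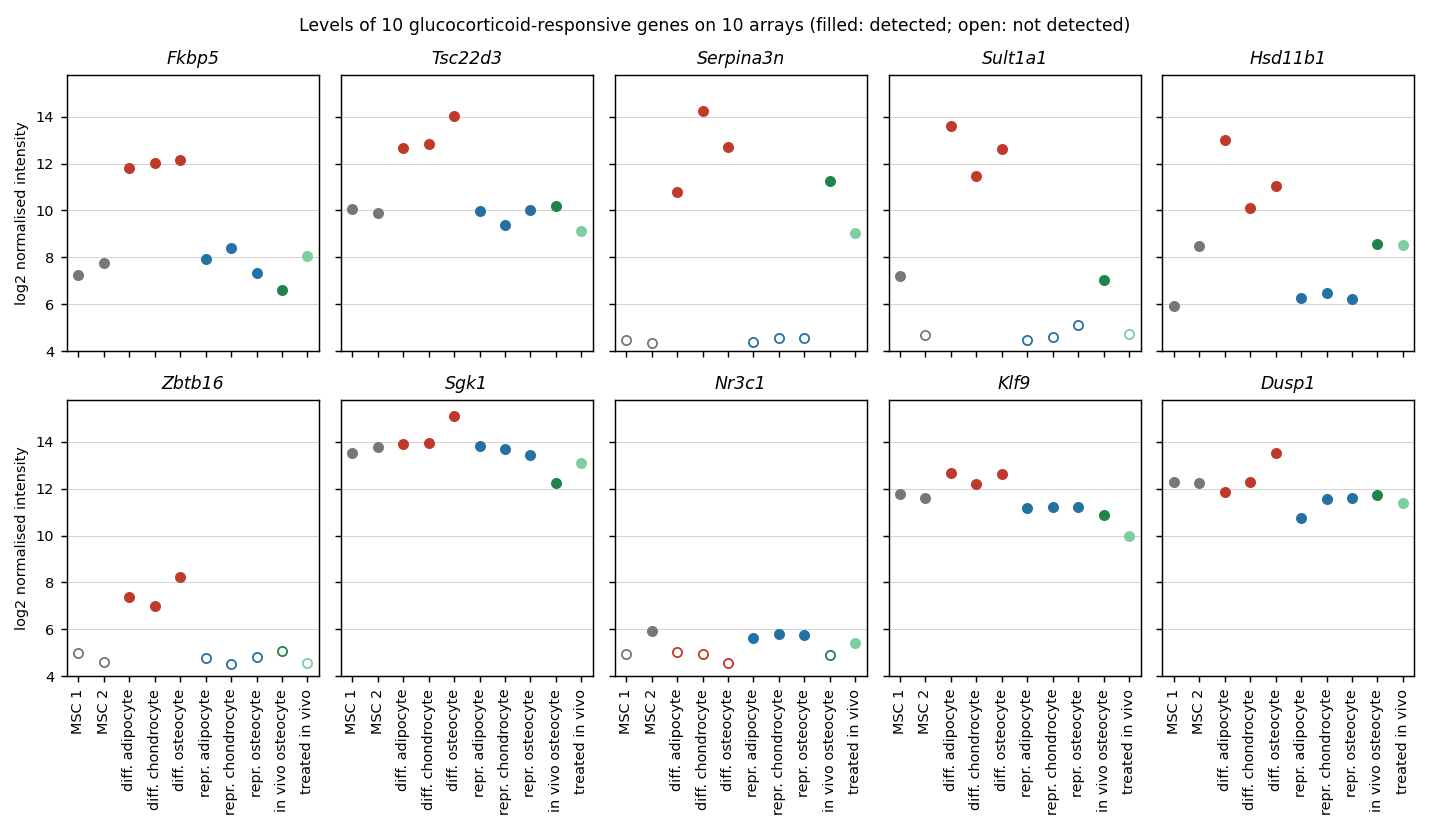
Log2 normalised intensity (vertical axis) of each of the 10 genes on the 10 arrays (horizontal axis), 1 point per array, filled where the probe was detected and open where it was not. The 3 differentiated arrays are the highest for all genes except Serpina3n, Dusp1 and Nr3c1, and Nr3c1 is not detected on any of them.

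Taken as a set, the differentiated arrays all lay above the reprogrammed arrays for 9 of the 10 genes, with Nr3c1 the exception. Across the probes tested this held for 10.1%, and since the genes were picked for it, nothing is read from the excess. The gap was 2-fold or more for 6 genes (1.12% of probes): Fkbp5, Tsc22d3, Serpina3n, Sult1a1, Hsd11b1 and Zbtb16. The median difference over the 10 genes was -3.10, or -2.74 with undetected genes at their bounds, against 0.10 for all probes. By lineage, the osteocyte pair had 9 genes at least 2-fold lower in reprogrammed cells (10.8% of probes), the adipocyte pair 8 (17.7%) and the chondrocyte pair 6 (19%). Klf9 and Dusp1 missed 2-fold in the chondrocyte pair, at -0.94 and -0.75. Nr3c1 was at least 2-fold higher in the osteocyte pair alone by its level, at 1.20 (12% of probes), but only at least 1.16-fold by its bound.

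**Figure D2:**
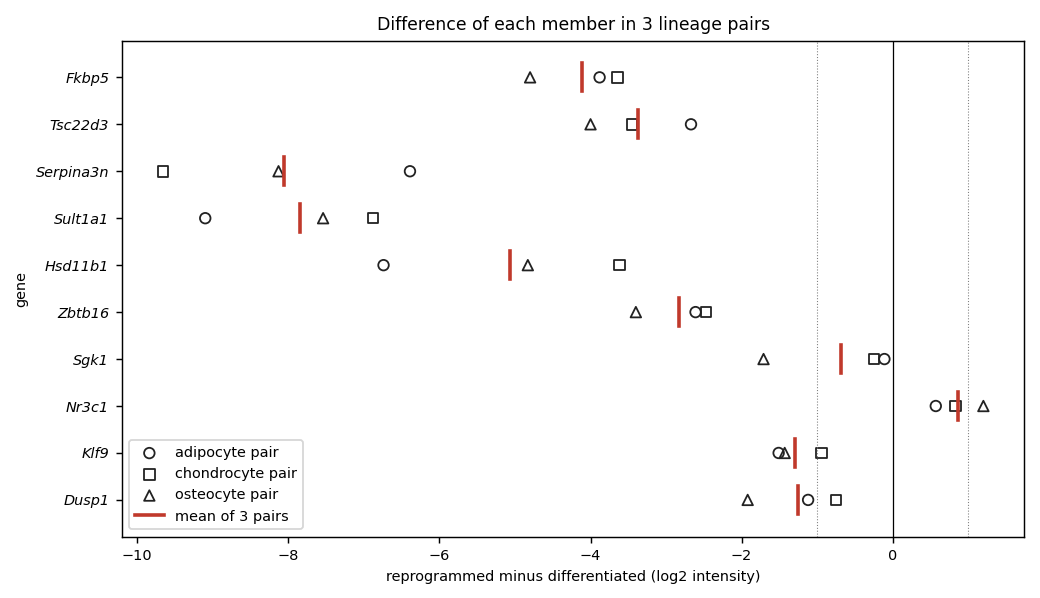
Difference in log2 intensity between reprogrammed and differentiated cells (horizontal axis) for each gene (vertical axis), with 1 symbol per lineage pair, the mean of 3 pairs as a red bar and dotted lines at a 2-fold difference. Every symbol is left of 0 except those of Nr3c1, and the means run from -8.06 for Serpina3n to 0.87 for Nr3c1.

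The lineages did not share 1 order. Hsd11b1 and Sult1a1 were highest in the adipocyte array, Serpina3n in the chondrocyte array, and Tsc22d3, Zbtb16, Sgk1 and Dusp1 in the osteocyte array. Fkbp5 and Klf9 differed little among the 3, with ranges of 0.34 and 0.50. With 1 array per lineage, none of these orders has a replicate, and the osteocyte array stood on its own deposited scale.

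Differentiated cells and reprogrammed cells were each set against MSC. These are comparisons between arrays of different populations, so a rise or return within the same cells was not measured. All 3 differentiated arrays lay above both MSC arrays for 8 of the 10 genes (7.77% of probes), the exceptions being Nr3c1 and Dusp1. The median difference was 2.96, or 2.59 at the bounds, against -0.09 for all probes. At 2-fold from both MSC arrays, 6 genes were higher in the adipocyte array (9.97%), 6 in the chondrocyte array (12.9%) and 8 in the osteocyte array (4.33%), where Sgk1 and Dusp1 joined the others at 1.48 and 1.24 above the MSC mean. These contrasts share the differentiated arrays that chose the genes, so they too are a description.

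Reprogrammed cells were much nearer to MSC. The mean of their 3 arrays lay between the MSC arrays for 5 of the 10 genes, against 47.6% of all probes, and the median difference from MSC was -0.14, against 0.01 for all probes. Low levels on the reprogrammed arrays also chose the genes, so this is a description. The count of 5 is near the share of all probes and is not particular to the members. Of these 5 genes, Zbtb16 was not detected on any MSC or reprogrammed array. Among those arrays Sult1a1 was detected only on MSC 1, and Nr3c1 lay near the detection limit. Serpina3n, which also enters the median, was not detected on any of them. For Zbtb16 and Serpina3n, nearness to MSC therefore compares undetected levels only. Only Dusp1 in reprogrammed adipocytes was 2-fold below both MSC arrays, where 0.857% of probes were, and 0.584% and 0.542% in chondrocytes and osteocytes. Such a call needed detection on both MSC arrays. Serpina3n, Zbtb16, Sult1a1 and Nr3c1 lacked it, so they could not be called lower. No member was 2-fold above both in any lineage, where 0.194%, 0.389% and 1.57% of probes were in adipocytes, chondrocytes and osteocytes. Klf9 and Dusp1 were the genes with all 3 reprogrammed arrays below both MSC arrays. The MSC arrays bound what can be said here: Hsd11b1 was 5.77-fold higher in MSC 2 than in MSC 1 (8.57% of probes were 2-fold higher) and Sult1a1 at least 3.35-fold lower (8.36% were 2-fold lower). Across all genes, no probe passed an adjusted p of 0.05 in limma for reprogrammed cells against MSC, and 72 of 18131 (0.397%) had an unadjusted p under 0.05.

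Cell cycle genes moved alongside this contrast. Their median level was 5.19, 5.73 and 7.26 in differentiated adipocytes, chondrocytes and osteocytes and 10.01, 10.51 and 8.89 in the reprogrammed cells, with MSC at 8.47 and 10.23. Of the 8 genes, 1, 5 and 6 were detected on those differentiated arrays, and 7 on each reprogrammed and MSC array. The adipocyte median lay below the dimmest detected probe of its array, at 5.78, so it is only an upper limit. The part of proliferation in the levels of the glucocorticoid genes was not tested.

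Osteocytes derived in vivo were compared with the cultured ones and with MSC, 1 array each and without a test. All 9 of the genes detected on either array were at least 2-fold lower in in vivo than in differentiated osteocytes, where 18.5% of probes were, and the differentiated array is one that chose the genes. Fkbp5 stood at 6.62 against 12.14, Tsc22d3 at 10.20 against 14.01, and Zbtb16 was not detected, at 5.09 against 8.23. Fkbp5 and Tsc22d3 were within 2-fold of the MSC mean, at -0.88 and 0.21.

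Serpina3n stood furthest above MSC on the in vivo arrays. It stood at 11.24 in in vivo osteocytes, at least 52.3-fold above MSC (11.6% of probes were 2-fold higher), and at 9.05 in treated ones, at least 11.5-fold above MSC (8.60%). The untreated array carried the macrophage markers, with a sum of 144548, and the treated array had a sum of 1029. Their part in the Serpina3n level was not tested. Hsd11b1 stood at 8.55 and 8.51 in untreated and treated ones, 2.54-fold and 2.47-fold above the MSC mean but close to MSC 2 at 8.47. Sult1a1 stood at 7.02 in untreated ones, above the MSC mean but below MSC 1 at 7.22. Sgk1 was 2.63-fold below MSC in in vivo osteocytes (10.0%), and Klf9 was 3.22-fold below MSC in treated ones (7.68%).

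Treated and untreated in vivo osteocytes differed 2-fold or more in 4 of the 9 genes detected on either array. The count is near the share of all probes past 2-fold in either direction, given below, and is not particular to the members. Fkbp5 was higher in the treated cells, at 8.04 against 6.62, a difference of 1.43 (17.6% of probes were 2-fold higher). Tsc22d3, Serpina3n and Sult1a1 were lower, by -1.09, -2.19 and -2.30 (16.1% of probes were 2-fold lower), the last at least 3.05-fold, since Sult1a1 was not detected after treatment. For Tsc22d3 only its brightest probe was detected on these arrays. Probes 2 and 3, not detected on either, differed by -0.16 and -0.34, and the mean over its probes by -0.53, so the 2-fold difference rests on 1 probe. Without background correction only Serpina3n stayed 2-fold lower or more, at -1.96, whereas Tsc22d3 stood at -0.94, Sult1a1 at -0.80 and Fkbp5 at 0.80.

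**Figure D3:**
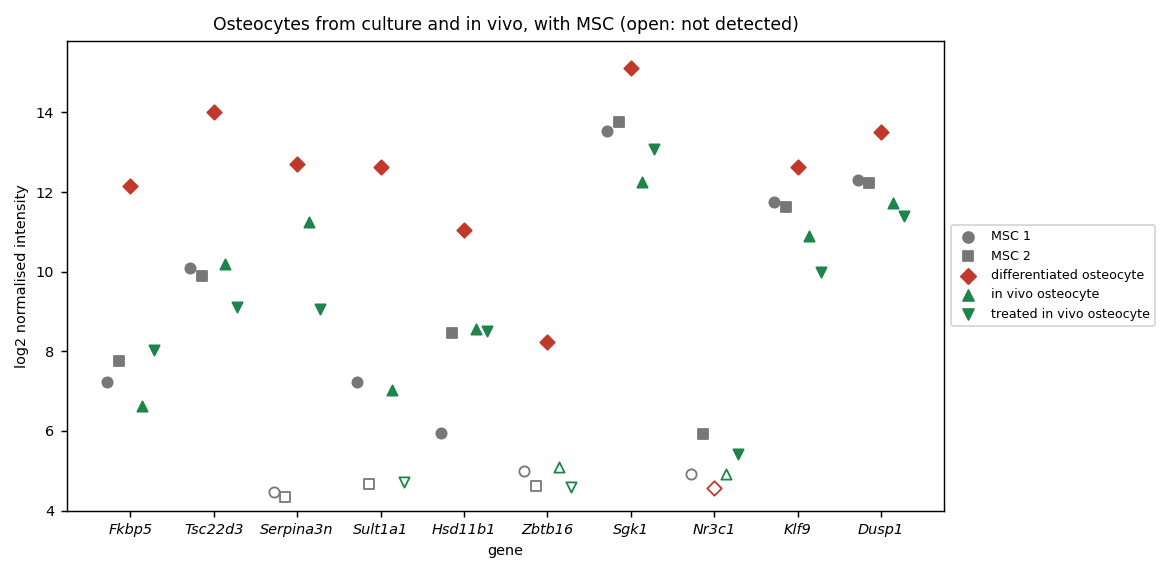
Log2 normalised intensity (vertical axis) of the 10 genes (horizontal axis) in the 2 MSC arrays, differentiated osteocytes, in vivo osteocytes and treated in vivo osteocytes, 1 symbol per array, open where the probe was not detected. Differentiated osteocytes are the highest for every gene except Nr3c1, and Serpina3n is the gene in which both in vivo arrays stand far above MSC.

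Tsc22d3 and Hsd11b1 had more than 1 probe, which gave a further look within the same RNA. Probe 2 of Tsc22d3 by brightness, annotated to another transcript, stood at 8.48, 8.18 and 10.57 in differentiated adipocytes, chondrocytes and osteocytes and at 5.77, 5.44 and 6.57 in reprogrammed cells. It thus kept the direction in all 3 lineages. Probe 3 was detected on the differentiated adipocyte and osteocyte arrays, at 8.50 and 8.95, but not on the chondrocyte array, at 4.89. Probes 2 and 3 of Hsd11b1 followed probe 1, at 12.51 and 12.10 in differentiated adipocytes and at 5.81 and 4.62 in reprogrammed ones. Probe 4 was detected on the differentiated adipocyte array alone, at 7.82, and its mean difference was -0.74.

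**Figure D4:**
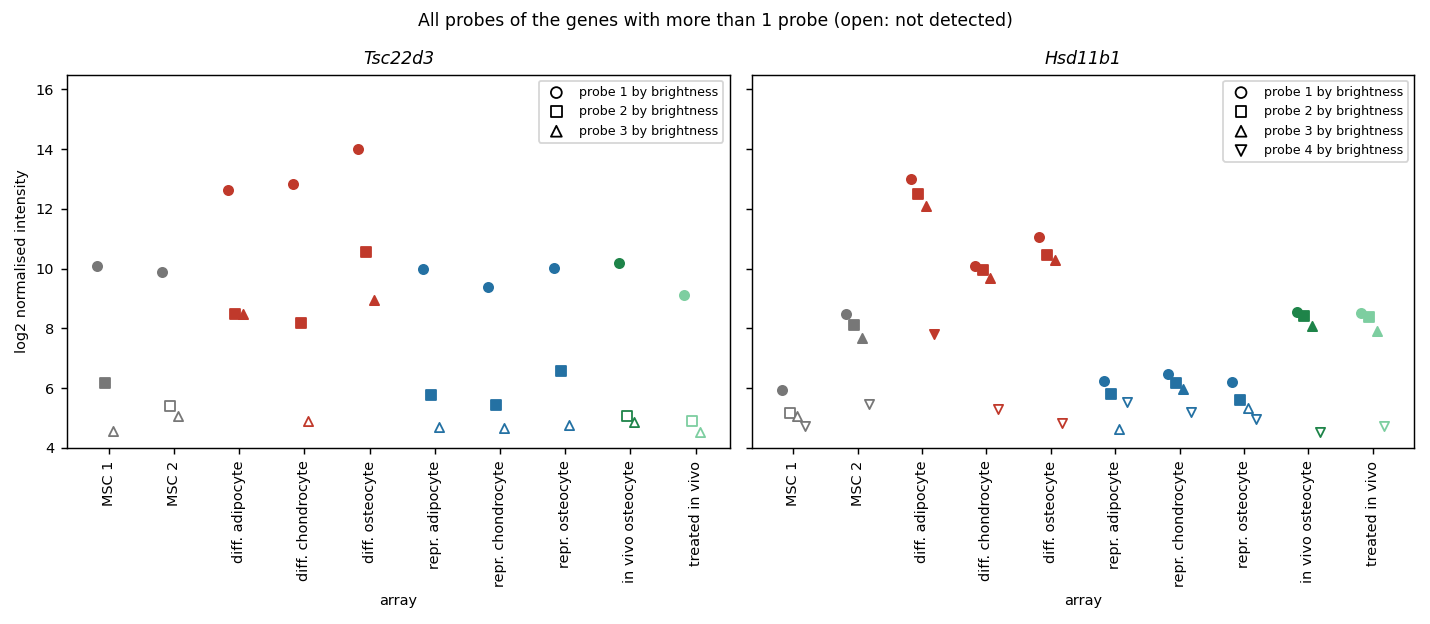
Log2 normalised intensity (vertical axis) of the 3 probes of Tsc22d3 and the 4 probes of Hsd11b1 on the 10 arrays (horizontal axis), 1 symbol per probe, open where not detected. The brighter probes of each gene place the 3 differentiated arrays above the 3 reprogrammed arrays, and the dimmest probes are detected on 2 arrays and 1 array.

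Genes known to be induced by glucocorticoids, other than the members, show how far the pattern extends. The list held 33 genes, of which 32 were on the array and 27 were tested in the fit across all probes, which had lineage as a block. Of the 27, 22 were lower and 5 higher in reprogrammed than in differentiated cells, with a median of -1.48 against 0.10 for all probes, and the same median with undetected genes at their bounds. None passed an adjusted p of 0.05 in limma, against 0.141% of probes lower and 0.135% higher. At an unadjusted p under 0.05, 18 were lower and 0 higher (7.83% of probes were lower). A 2-fold lower mean was seen in 17 of 27 (9.15%) and, among the 20 detected on all 6 arrays, in 11 (7.65%). The list was written with earlier results of these data known, and the part of the cell cycle and macrophage differences given above was not tested for it.

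The largest differences on that list were in Mertk, Mt2, Glul and Fam107a. Mertk, a receptor kinase for uptake of dying cells, stood at 8.82, 11.39 and 10.02 in differentiated adipocytes, chondrocytes and osteocytes and at 5.70, 5.08 and 5.60 in reprogrammed ones. Its difference was -4.61 ± 0.62 (SE, 3 pairs), with an adjusted p of 0.0561 in limma and a bound of at least 23.0-fold. Mertk was highest on the chondrocyte array, which carried macrophage markers, and is also known from macrophages, and it was lower in the adipocyte and osteocyte pairs too, by -3.11 and -4.42.

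Mt2, a metal-binding metallothionein, differed by -3.50 ± 0.60 (adjusted p 0.0691 in limma, at least 9.39-fold). Glul, glutamine synthetase, differed by -3.47 ± 0.63 (adjusted p 0.0747 in limma, at least 9.75-fold). Fam107a, an actin-associated stress protein, differed by -3.41 ± 1.05 (adjusted p 0.173 in limma, at least 5.96-fold), and its pairs were uneven, with -3.99, -0.09 and -6.15 in the adipocyte, chondrocyte and osteocyte lineages.

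At the other end stood Anxa1, Errfi1, Cdkn1c and Foxo3. Anxa1, the anti-inflammatory protein annexin A1, differed by 0.83 ± 0.74, with 2.73 in the adipocyte pair and -1.33 in the osteocyte pair. Cdkn1c, a cell cycle inhibitor, differed by 0.30 ± 1.10, with 2.18 and 2.13 in the adipocyte and chondrocyte pairs and -3.41 in the osteocyte pair. It was not detected in differentiated adipocytes, at 5.18, and the MSC arrays themselves stood at 5.39 and 8.83. Errfi1, an inhibitor of EGF receptor signalling, differed by 0.35 ± 0.47, and Foxo3, a forkhead factor, by 0.17 ± 0.37. Their adjusted p in limma ran from 0.575 to 0.905.

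Against MSC, 24 of the 27 induced genes were higher in differentiated cells, with a median of 1.14 against -0.09. None passed an adjusted p of 0.05 in limma, against 0.0165% of probes, and 15 were higher at an unadjusted p under 0.05 (3.14% of probes). In reprogrammed cells against MSC the median was -0.15 and none had an unadjusted p under 0.05. Of the 33 listed induced genes, 29 had promoter windows. The core element of the receptor occurred in 5 of these 36 windows (0.387% of all promoter windows), belonging to Mt1, Fam107a, Map3k6 and Txnip. The Fam107a windows overlapped and held the same site.

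Genes that glucocorticoids are known to repress gave a mixed picture. Of 15 on the list, 8 were tested, and 5 were higher and 3 lower in reprogrammed cells, with a median of 0.70 against 0.10 for all probes. None passed an adjusted p of 0.05 in limma, against 0.135% of probes higher and 0.141% lower. Ccl2, a monocyte chemokine, stood at 6.52, 9.39 and 5.61 in differentiated adipocytes, chondrocytes and osteocytes and at 8.76, 11.46 and 9.04 in their reprogrammed counterparts. It was higher in every pair, by 2.58 ± 0.41 (adjusted p 0.0631 in limma). Ptgs2, which makes prostaglandin precursors, differed by 2.26 ± 0.79, with -0.27 in the osteocyte pair. Cxcl1, a neutrophil chemokine, differed by 1.52 ± 0.98, with 4.76 in the chondrocyte pair, where the differentiated array did not detect it, and -0.44 and 0.25 in the adipocyte and osteocyte pairs. Ccl7, another monocyte chemokine, differed by 1.12 ± 0.37. The matrix proteases Mmp3 and Mmp13 differed by -2.35 ± 0.82 and -2.15 ± 0.89, but by 0.20 in the adipocyte pair for Mmp3 and 0.76 in the osteocyte pair for Mmp13. Vcam1, an adhesion molecule, differed by -0.66 ± 0.36 and Il6, a cytokine, by 0.28 ± 0.34. Icam1 and Tnf, which were not tested because too few arrays detected them, were detected among cultured cells only on the differentiated chondrocyte array, at 10.51 and 6.51, beside the macrophage markers.

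Receptor chaperones and enzymes made up the last list. Of 12 genes, 10 were on the array and 6 were tested, with 5 higher and 1 lower in reprogrammed cells. Their median was 0.62, against 0.10 for all probes. None passed an adjusted p of 0.05 in limma, against 0.135% of probes higher and 0.141% lower. Hsp90aa1, the heat shock protein that holds the receptor ready for hormone, differed by 1.32 ± 0.42 (adjusted p 0.178 in limma), and Stip1, which links the heat shock proteins, by 1.23 ± 0.43 (adjusted p 0.203 in limma). The lower gene was H6pd, which supplies the NADPH that Hsd11b1 uses to regenerate hormone. It stood at 10.45, 10.46 and 11.47 in differentiated adipocytes, chondrocytes and osteocytes and at 9.07, 9.21 and 9.22 in reprogrammed cells of those lineages. Its difference was -1.63 ± 0.38 (adjusted p 0.111 in limma), in the direction of Hsd11b1 in all 3 pairs, and Hspa8 differed by 0.39 ± 0.37.

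**Figure D5:**
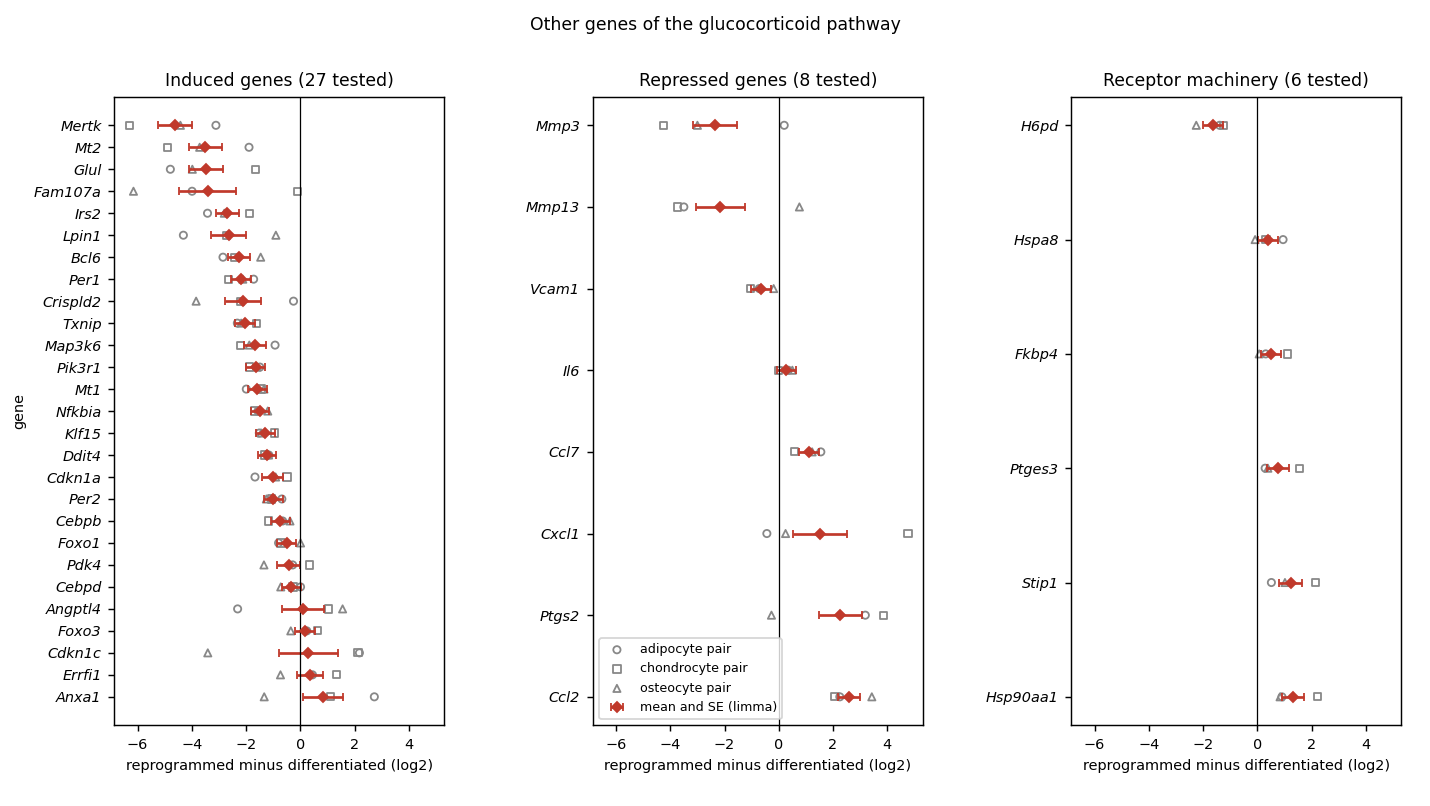
Difference in log2 intensity between reprogrammed and differentiated cells (horizontal axis) for the tested genes of 3 lists (vertical axis), with open symbols for the lineage pairs and red diamonds for the fitted mean with its SE from limma. The 27 induced genes lie mostly left of 0, from -4.61 for Mertk to 0.83 for Anxa1, while the 8 repressed genes lie on both sides.

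The members were compared with each other and with the rest of the array by the shape of their profile over 10 arrays. These points share lineages and, for the pairs, a source, and the 3 differentiated arrays stand apart as a cluster, so each correlation mainly records that split and is a description without a test. Against the mean of the other members, Zbtb16 (r = 0.97), Tsc22d3 (0.96), Fkbp5 (0.93) and Sult1a1 (0.91) lay closest. Serpina3n lay at 0.64, Dusp1 at 0.65, Sgk1 at 0.66 and Nr3c1 at -0.70. Among 10381 genes compared, the 8 outside the members most like their mean profile were Agfg2 (0.967), Klf15 (0.947), Cldn10 (0.939), Tle1 (0.916), Kdsr (0.914), Epn2 (0.911), Sorcs2 (0.906) and Per2 (0.903), with the next at 0.896. Agfg2 stood at 10.27, 10.12 and 10.59 in differentiated adipocytes, chondrocytes and osteocytes, at 9.01, 9.22 and 8.98 in reprogrammed ones, and at 9.45 and 9.44 in MSC. Cldn10, a tight junction claudin, was detected on the 3 differentiated arrays only, as Zbtb16 was, at 7.22, 6.83 and 10.09. Klf15, a Krüppel-like factor detected on 2 arrays, and Per2, a clock gene, are also on the list of induced genes. Klf15 was not detected in reprogrammed cells and was lower there by at least 1.19-fold, and the difference of Per2 was -0.99.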

How the data were processed

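Total RNA of 10 samples was measured on mouse bead arrays, with groups taken from the labels. Per the file headers, the deposited scanner table gave every array an intensity and a detection p-value per probe (45281 probes). How the authors made the intensities is not given in sources used here. The deposited value table was linear in 8 columns and log2 in the osteocyte pair. Its linear columns did not follow the scanner table by probe ID (Spearman rho -0.00745 to -0.00155) and served, matched by rank, as an alternative.

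Intensities were corrected with normexp from the detection p-values (offset 16), quantile normalised and set to log2, as in neqc of limma 3.58.1 in R 4.3.3. Symbols came from the array annotation (34885 probes with 1 symbol). Fits with lmFit and eBayes, tested on simulated data, kept probes that at least 2 of their arrays detected, with Benjamini-Hochberg adjustment: 6 arrays with lineage as a block for reprogrammed minus differentiated, and 8 arrays for contrasts with MSC. The labels name no separate animals or cultures, so p-values measure only the spread between these samples. Single pairs used a 2-fold rule with detection on the higher side. Alternatives changed the background correction, offset, scaling, filter, block, probe and arrays.

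The members and gene lists were chosen with earlier results of these data known. Named outside the members were the 4 highest and 4 lowest genes of each list in reprogrammed minus differentiated cells (2 and 2 for receptor machinery) and the 8 genes most like the mean profile. Icam1, Tnf, Mt1, Map3k6 and Txnip were named after their values were seen. Further list genes in the closing sections, such as Angptl4 and Bcl6, were named for opposite pairs, a pass under an alternative or a 2-fold difference.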

Additional observations from a re-analysis of the deposited data

Results flagged for a closer look

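In 3 genes of the induced list, lineage pairs differed at least 2-fold in opposite directions between reprogrammed and differentiated cells, with 1 array on each side, so the difference between lineages was not tested. Angptl4, an inhibitor of lipoprotein lipase, differed by -2.31 in the adipocyte pair and by 1.03 and 1.56 in the chondrocyte and osteocyte pairs. Its highest level, 13.36, was in differentiated adipocytes. Cdkn1c differed by 2.18 and 2.13 in the adipocyte and chondrocyte pairs and by -3.41 in the osteocyte pair. Anxa1 differed by 2.73 and 1.10 in the adipocyte and chondrocyte pairs and by -1.33 in the osteocyte pair. Cdkn1c was not detected in differentiated adipocytes, at 5.18. The MSC arrays also differed from each other, at 5.39 (not detected) and 8.83 for Cdkn1c and at 10.16 and 11.44 for Angptl4. For Anxa1 they were close, at 12.42 and 12.50. The osteocyte pair was deposited on another scale than the others, and the part of that in these values was not tested.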

How the results depend on the processing

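The sign of the difference between reprogrammed and differentiated cells held for all 10 members under every alternative tried. The genes were picked on this contrast in the same arrays, so the kept sign is a description. Sizes moved: Serpina3n ran from -8.90 to -5.53 and Hsd11b1, with its dimmest probe included, from -5.79 to -0.74. The count of probes passing in that contrast was 49 and depended on the settings: 0 without background correction, 0 without a detection filter, 10 with an offset of 50, 26 in the deposited value table, 55 to 330 leaving out a lineage (211 without adipocytes, 330 without osteocytes). Against MSC, the 3 probes that passed for differentiated cells became 1 without a detection filter, 0 to 11 leaving out a lineage, and 0 without either MSC array. None passed for reprogrammed cells against MSC in any alternative.

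Labels give no shared culture for a lineage, and the block is by lineage name. With no replicate block, 344 probes passed between reprogrammed and differentiated cells, and 3 list genes (Bcl6, Glul and Mertk). With lineage as a replicate block, 0 passed for differentiated cells against MSC. Of the list genes, where 0 passed, 1 (Mertk, adjusted p 0.048 in limma) passed with scaling to the 75th percentile and 3 to 4 leaving out a lineage, always with Mertk. The 17 induced genes at least 2-fold lower became 11 of 20 when detection on every array was required, and 13 to 18 in the other alternatives, which were chosen after seeing the data. In the in vivo pair, 1 member in place of 3 was 2-fold lower without background correction. The difference of Sult1a1 from MSC in reprogrammed cells reversed to 0.06 without MSC replicate 1 and was -2.50 without MSC replicate 2. The cause of these shifts was not tested, apart from fewer arrays or probes where they were left out.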

Other observations

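Treated and untreated in vivo osteocytes were also compared in the wider pathway, 1 array each and without a test. Of 25 induced genes detected on either array, 6 were at least 2-fold lower after treatment (Mt1, Errfi1, Mertk, Bcl6, Pik3r1 and Txnip) and 1 was higher (Foxo3), where 16.1% of all probes were lower and 17.6% higher. Mertk differed most, at 10.74 untreated and 5.24, not detected, treated, and the summed macrophage markers were 144548 and 1029 on the same arrays. Of 11 repressed genes detected, Tnf, Mmp3 and Mmp13 were lower, with Mmp13 at 13.67 untreated and 8.69 treated, while Il6 and Cxcl1 were higher, at 8.65 and 7.22 untreated and 9.91 and 9.77 treated. Of 6 receptor chaperones and enzymes, Fkbp4, a co-chaperone that helps the receptor reach the nucleus, was higher, at 9.99 untreated and 11.87 treated. The genes named here were those past 2-fold and were chosen after their values were seen.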
